A study of Mus musculus with 5 samples.

Results

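Transcript levels in wild type mouse lungs were compared with and without injurious ventilation. The comparison described here set ventilated wild type lungs (WT_VILI) against unventilated wild type lungs (WT_noVILI), over every gene whose mean abundance was at least 1 log2 CPM (CPM, counts scaled to the library size). Of 21590 genes in the authors' deposited table, 13344 met this minimum and lay on an autosome or on no assigned chromosome. Those left out were 7789 genes of lower abundance and 457 genes linked to the X or Y chromosome, because the groups differed in sex-linked transcripts. Both groups were whole lungs of mice on a mixed 129S6, C57BL/6 and BALB/c background. Ventilated mice had 2 h of mechanical ventilation at a pressure of 40 cmH2O, which injures the lung by overdistension (ventilator-induced lung injury, VILI), and unventilated lungs were taken directly. Age is not given in the labels. The study also had lungs of Cldn4 knockout mice that were unventilated (KO_noVILI), or ventilated with an injury similar to wild type (KO_VILIlow) or greater than it (KO_VILIhigh). These knockout groups, sorted by their injury, are used here for values set beside those of the wild type and, in the closing section, for the difference between the responses of the genotypes. The design text gives 2 libraries per group.

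A lung breathed at high pressure is stretched beyond its normal volume. Stretch reaches the thin alveolar epithelium, the capillary endothelium beneath it and the matrix and fibroblasts between them. Stretched cells are known to open ion channels, to load the actin cytoskeleton and to release ligands of the EGF receptor, and immediate early transcription factors are made within the first hour. Cytokines then recruit neutrophils, while tight junctions and sodium transport decide how much fluid enters the airspace.

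The lung markers Scgb1a1 (club cells) and Sftpc (type 2 cells) stood at 14.90 and 13.37 log2 CPM on average. Both are among 102 members with a deposited fold change of exactly 0, on which no statement is made. The level of each group was worked back from the fold change and the abundance, and WT_noVILI is given before WT_VILI. Since the data hold 0 columns of values per library, neither a spread between replicates nor a depth can be given. Nothing says which libraries came from separate animals, so the deposited p-values measure the spread between libraries, which may in part be technical. Levels of Xist were 890 CPM without and 6.13 CPM with ventilation, and those of the Y-linked gene Kdm5d 0.02 and 27.2 CPM. Any effect of sex on the autosomal genes therefore cannot be told apart from that of ventilation. On this mixed background, the same holds for any difference in strain alleles between the groups. In whole lung, fewer cells of a type and less RNA per cell cannot be told apart either.

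At an adjusted p of 0.05, 1841 of the 13344 genes were called, which is 13.8 percent (9.09 percent of the whole table). Of these, 985 were higher after ventilation (7.38 percent of the genes) and 856 lower (6.41 percent). These shares are the background against which the gene groups below are read, and the median log2 change over all 13344 genes was -0.02. Large rises outnumbered large falls. Changes of at least 2-fold were called for 369 higher genes (2.77 percent) and 232 lower genes (1.74 percent). Changes of at least 4-fold were called for 86 higher genes (0.644 percent) and 22 lower genes (0.165 percent), and changes of at least 8-fold for 30 higher genes (0.225 percent) and no lower gene. The higher genes together held 6.35 percent of all counts in WT_noVILI and 10.99 percent in WT_VILI. The lower genes went from 8.81 to 5.38 percent.

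**Figure D1:**
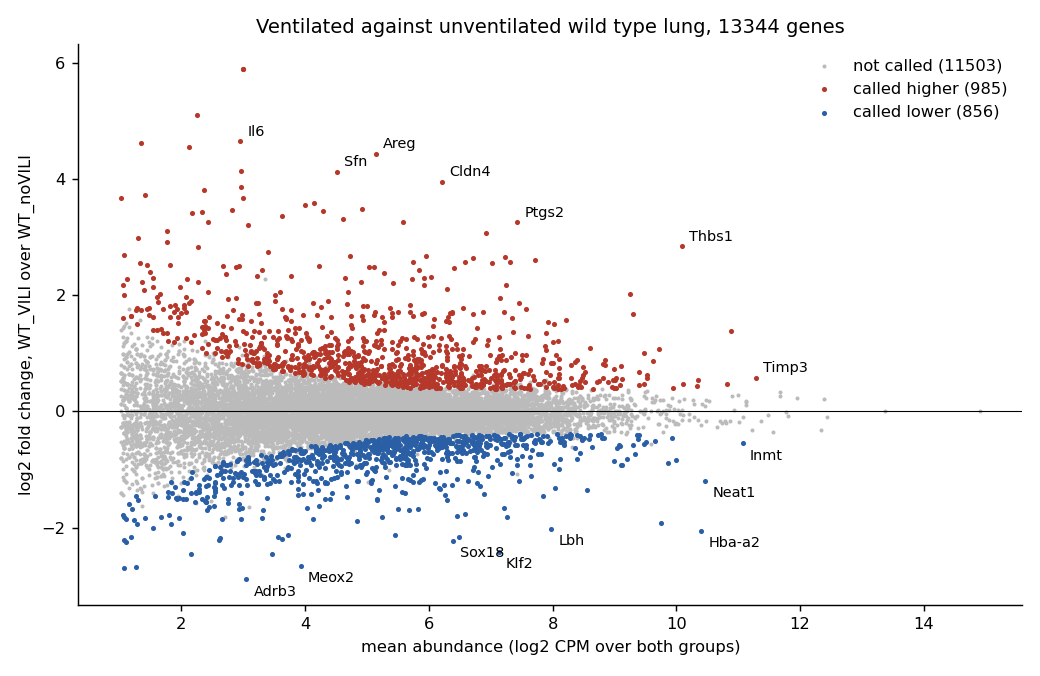
Log2 fold change of WT_VILI over WT_noVILI (vertical axis) against mean abundance in log2 CPM (horizontal axis), 1 point per gene, with 985 genes called higher in red, 856 called lower in blue and the others in grey. The largest changes are rises at low and middle abundance, while Thbs1, Timp3, Neat1, Hba-a2 and Inmt are called at high abundance.

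What could be called depended on abundance. Between 1 and 2 log2 CPM the smallest fold called was 2.29, and 7.62 percent of 1037 genes were called. Between 5 and 6 log2 CPM the smallest fold called was 1.33 and 16.7 percent of 2628 genes were called. Above 9 log2 CPM these values were 1.32 and 23.8 percent of 193 genes. Absolute log2 changes of up to 1.77 in the lowest range, 2.29 between 3 and 4 log2 CPM and 1.22 between 5 and 6 log2 CPM were not called. Changes below such sizes were thus not always detectable.

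**Figure D2:**
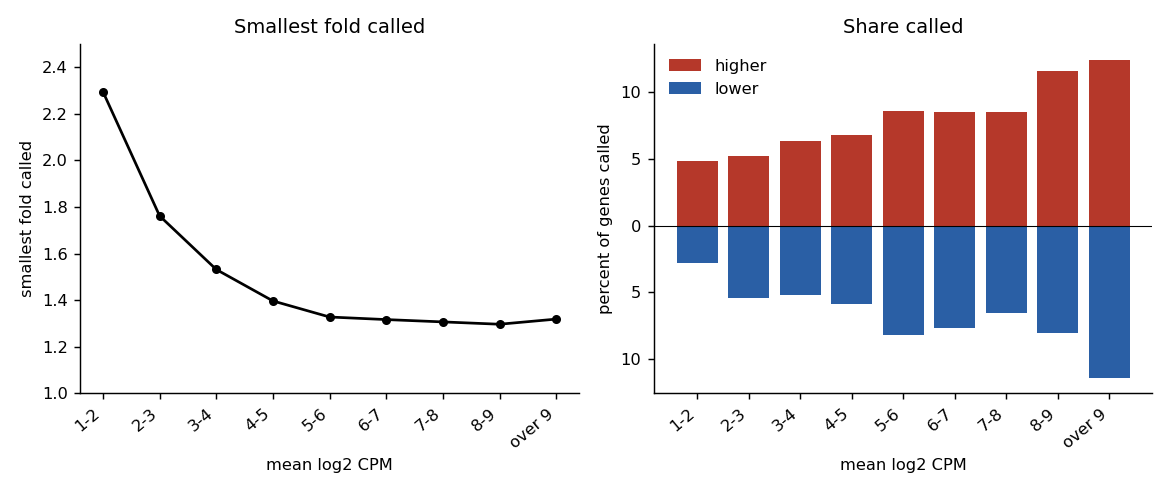
The smallest fold called (left, as a ratio) and the percent of genes called higher (red, above 0) and lower (blue, below 0) (right), in 9 ranges of mean log2 CPM. The smallest fold called drops from 2.29 to 1.33 between 1 and 6 log2 CPM and stays near that level above it.

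The smallest p of all 13344 genes belonged to Cldn4, the tight junction claudin that the study deleted in its knockout mice. Cldn4 went from 8.98 to 140 CPM, and was at 0.14 CPM or below in the 3 knockout groups, where it is deleted. Its log2 change in the authors' deposited table was 3.96 (adjusted p = 7.17e-91, edgeR). The 250 bases before its transcription start hold 2 copies of the AP-1 site TGACTCA, bound by dimers of FOS and JUN proteins. The stretch, in RefSeq's GRCm38.p6 at chr5:134946935-134947184 on the minus strand and written 5′ to 3′ with the AP-1 sites in capitals, is shown because this gene had the smallest p. It was chosen with Srxn1 and Mt2 among named genes with at least 2 matches of 1 motif.
Cldn4: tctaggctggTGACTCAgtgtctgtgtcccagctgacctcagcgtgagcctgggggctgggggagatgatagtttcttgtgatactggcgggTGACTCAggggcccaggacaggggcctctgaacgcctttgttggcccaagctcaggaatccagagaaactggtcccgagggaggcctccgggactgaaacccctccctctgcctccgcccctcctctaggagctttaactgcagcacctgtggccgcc
Of all 27025 promoters of this length in that table, 4.43 percent hold at least 1 such site on either strand and 0.159 percent at least 2. A match describes the letters and does not show binding.

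Genes of the AP-1 family and its partners, which pair to form early transcription factors, counted 12 rises and 1 fall among 16 measured, with a median log2 change of 0.73. Atf3, a repressor made under many stresses, went from 25.9 to 218 CPM. Maff, a small MAF protein without an activation domain, rose from 37.7 to 221 CPM, and Fosl1 from 6.19 to 19.2 CPM. The authors' deposited table gives log2 changes of 3.08 for Atf3 (adjusted p = 1.01e-36, edgeR) and 2.55 for Maff (adjusted p = 9.49e-64). The abundant members Jun (411 to 602 CPM) and Jund (323 to 597 CPM) rose by less, and Fos itself was not called at 182 and 236 CPM. The exception in direction was Atf5, which fell from 134 to 84.5 CPM. Genes that restrain MAP kinases rose in 6 of 18 cases, and none fell. The EGF receptor inhibitor Errfi1 rose from 240 to 976 CPM, the kinase phosphatase Dusp8 from 20.1 to 64.5 CPM and the Sprouty protein Spry4 from 48.6 to 106 CPM.

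Of 15 EGF receptor ligands, receptors and their partners, 4 rose and 1 fell. Amphiregulin (Areg), which cells shed from their surface, went from 3.1 to 67.5 CPM, with a log2 change of 4.44 in the authors' deposited table (adjusted p = 1.48e-80, edgeR). Epiregulin (Ereg) rose from 0.556 to 4.38 CPM and Hbegf from 49.1 to 116 CPM. Their receptor Egfr rose from 25.8 to 49.7 CPM, whereas its partner Erbb2 fell from 57.8 to 40.3 CPM. In ventilated knockout lungs Areg stood at 86.8 CPM in KO_VILIlow and 162 CPM in KO_VILIhigh, both above its 6.08 CPM in unventilated knockout lungs. Tgfa, Egf and Btc were not called.

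**Figure D3:**
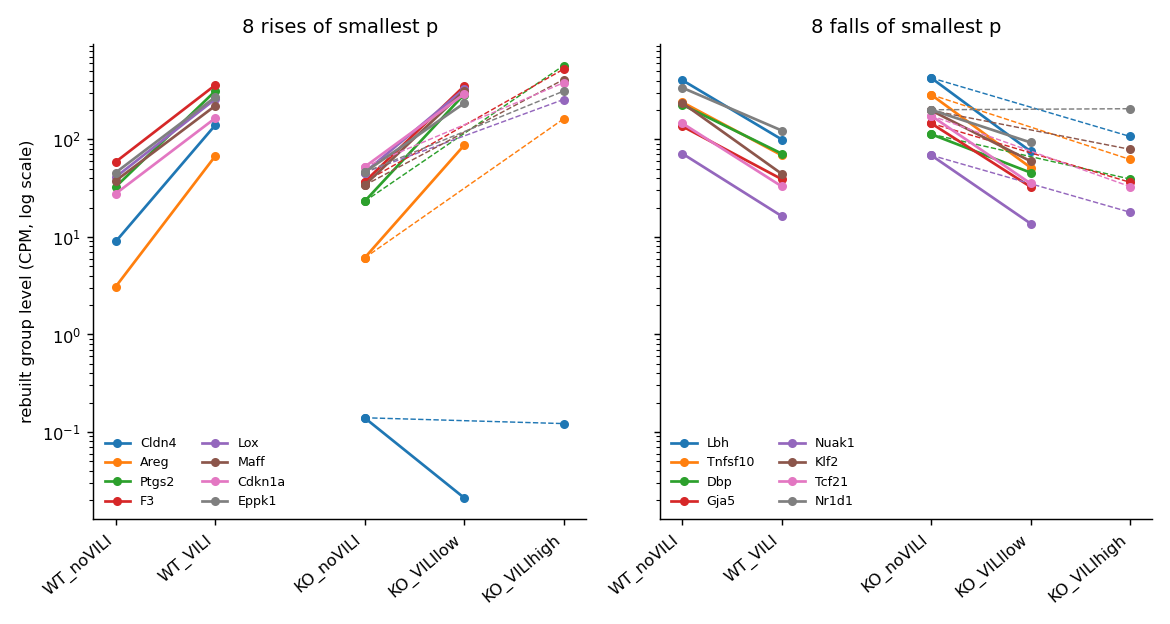
Rebuilt level in CPM on a log axis of the 8 rises (left) and the 8 falls (right) with the smallest p, in the 5 groups, with solid lines to WT_VILI and KO_VILIlow and dashed lines to KO_VILIhigh. Except for the deleted gene Cldn4, each rise stands higher in both ventilated knockout groups than in KO_noVILI, and of the falls Nr1d1 does not stand lower in KO_VILIhigh (206 CPM) than in KO_noVILI (201 CPM).

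Chemokine genes counted 10 rises and 1 fall among 20 measured. Neutrophil attractants of the CXC family rose from low levels, Cxcl1 from 1.64 to 15.2 CPM and Cxcl2 from 0.271 to 9.28 CPM. Among CC chemokines, which draw monocytes and other leukocytes, Ccl2 rose from 0.685 to 9.65 CPM, Ccl3 from 0.997 to 14.5 CPM and Ccl7 from 0.357 to 8.42 CPM. The folds of Cxcl2 and Ccl7 start from under 0.5 CPM and are fitted values, so only their levels are given. Cxcl12, which retains leukocytes in tissue, went the other way, from 429 to 245 CPM, and its receptor Cxcr4 from 94.9 to 54.3 CPM. Among cytokines Il6 rose from 0.59 to 14.8 CPM, with a log2 change of 4.65 in the authors' deposited table (adjusted p = 3.75e-21, edgeR). Tnf rose from 1.01 to 9.79 CPM and Il1b from 14.7 to 45.9 CPM. The largest loss among cytokines was that of the death ligand Tnfsf10 (TRAIL), from 240 to 68.5 CPM, at a log2 change of -1.81 in the authors' deposited table (adjusted p = 2.14e-32, edgeR). Of the death receptors, Tnfrsf10b, the receptor of TRAIL, rose from 16.3 to 33.5 CPM and Fas from 38 to 79.6 CPM.

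Receptors showed both directions, with 6 higher and 5 lower of 30. Il1r2, a decoy that binds interleukin-1 without signalling, went from 0.264 to 15.6 CPM, and Tnfrsf12a, the receptor of TWEAK, from 17.8 to 96.9 CPM. NF-kB subunits and their inhibitors rose in 8 of 22 cases, and none fell, at modest sizes. The inhibitor Tnfaip3 (A20) rose from 38.7 to 95.2 CPM and Nfkbia from 128 to 210 CPM. The lipopolysaccharide receptor Cd14 rose from 15.4 to 45.8 CPM and Tlr2 from 27.2 to 57.2 CPM, while Tlr4 was not called at 26.8 and 29.9 CPM. Adhesion molecules for leukocytes mostly did not pass the test: 1 of 20 was called, the poliovirus receptor Pvr, and Icam1 stood at 576 and 615 CPM and Vcam1 at 64.1 and 70.5 CPM.

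Most measured neutrophil markers rose, and 7 of 26 genes of monocytes and interstitial macrophages were lower. Of 24 neutrophil genes 15 were higher and 2 lower, with a median log2 change of 1.51. The granule proteins Ngp (0.834 to 14.7 CPM) and Mmp8 (2.73 to 32.8 CPM) and the alarmin S100a8 (20.4 to 101 CPM) rose. Of the receptors of circulating neutrophils, the chemokine receptor Cxcr2 rose from 11.1 to 40 CPM and the G-CSF receptor Csf3r from 34 to 102 CPM. The related chemokine receptor Cxcr1 fell from 4.37 to 1.59 CPM, and the formyl peptide receptors Fpr1 and Fpr2 were not called. The early granule enzymes Elane and Mpo, which neutrophil precursors in marrow make, stood below 1 CPM in both groups. The listed genes that fell were Chi3l3, also a macrophage gene, which fell from 245 to 106 CPM, and the lipase inhibitor G0s2, from 68.6 to 26.3 CPM. Summed over the list, the level was 1328 CPM in WT_noVILI and 1723 CPM in WT_VILI. That sum includes Chi3l3 and the abundant gene Hp (9.46 log2 CPM on average, log2 change 0.01). Hp was not called and is also in the club cell list. The part of neutrophils in the cytokine and protease changes was not tested.

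Among 26 genes of monocytes and interstitial macrophages 7 were lower and 2 higher. The fractalkine receptor Cx3cr1, which marks patrolling monocytes, fell from 21.5 to 4.91 CPM, and Treml4 from 10.1 to 2.16 CPM. Emr4, an adhesion receptor of myeloid cells, fell from 18.7 to 3.4 CPM, and Ccr2, the receptor of Ccl2, from 45.1 to 12.2 CPM. The authors' deposited table gives a log2 change of -1.89 for Ccr2 (adjusted p = 3.64e-14, edgeR). Csf1r, on which monocytes depend, stood at 155 and 127 CPM and was not called. Nr4a1, Fcgr4 and Ace of the same list were not called either, at log2 changes of -0.02, 0.05 and 0.18. The list's summed level was 7916 CPM in WT_noVILI and 8663 CPM in WT_VILI, most of it from Lyz2 (4962 and 5747 CPM), which was not called and which other cells also make. Alveolar macrophage genes showed 1 higher and 2 lower of 25.

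B cell genes were lower in 6 of 27 cases, among them Ms4a1 (CD20) from 26.2 to 11.8 CPM and the low affinity IgE receptor Fcer2a from 13.1 to 5.52 CPM, while Cd79a was not called. T cell genes were higher in 3 of 24 cases, with the costimulator Cd28 rising from 11.4 to 23 CPM, and Cd3e stood at 16 and 13.9 CPM. Platelet genes were higher in 5 of 13 cases, 1 of which is Thbs1, also made by other cells. Ppbp, a platelet chemokine, rose from 1.32 to 4.87 CPM and Gp5 from 1.49 to 5.02 CPM, whereas Pf4 stood at 3.93 and 6.34 CPM and was not called.

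Of 6 measured red blood cell genes, 3 fell. Alpha globin (Hba-a2) went from 2184 to 525 CPM and beta globin (Hbb-bs) from 1370 to 361 CPM, the first being the largest loss in CPM of any gene. In knockout lungs Hba-a2 stood at 3603 CPM unventilated and at 2057 CPM in KO_VILIlow and 1882 CPM in KO_VILIhigh after ventilation. WT_VILI was thus the lowest of the 5 groups. The list's summed level was 3807 CPM in WT_noVILI and 1209 CPM in WT_VILI, and how much blood each lung held was not measured. Globin copies share sequence, so reads may be split between them. Cardiac muscle genes, expressed in pulmonary vein walls and in heart, were called in none of 26 cases in the authors' edgeR test (0 higher and 7 lower at an unadjusted p under 0.05) but had a median log2 change of -0.49, and the highest of the 26 changes was -0.02.

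Genes that answer interferon and genes that present antigen on MHC class I were lower wherever they were called. Of 35 interferon response genes 14 were lower and none higher, and of 20 genes of MHC class I and peptide loading 10 were lower and none higher. Median log2 changes were -0.44 and -0.46. The transcription factor Irf1 fell from 116 to 71.7 CPM. So did Nlrc5, the transactivator of MHC class I genes, from 18.4 to 10.7 CPM. Among effectors the interferon-inducible GTPases Iigp1 (27.9 to 12.1 CPM), Irgm2 (46.9 to 20.6 CPM) and Gbp7 (72.3 to 31.8 CPM) fell, while the antiviral genes Isg15, Ifit1 and Mx1 were not called. The class I heavy chain H2-K1 fell from 801 to 484 CPM, its light chain B2m from 653 to 434 CPM and the immunoproteasome subunit Psmb8 from 56.1 to 32.3 CPM. H2-Q7 had the largest change of the class I list, a log2 change of -1.31 in the authors' deposited table (adjusted p = 9.15e-14, edgeR), but class I genes are near copies and reads may be shared. The 5 neighbouring GTPase genes on chromosome 3, Gbp5, Gbp7, Gbp3, Gbp2b and Gbp2, were each lower. MHC class II genes H2-Aa and Cd74 were not called, although their transactivator Ciita fell from 33 to 17.8 CPM.

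**Figure D4:**
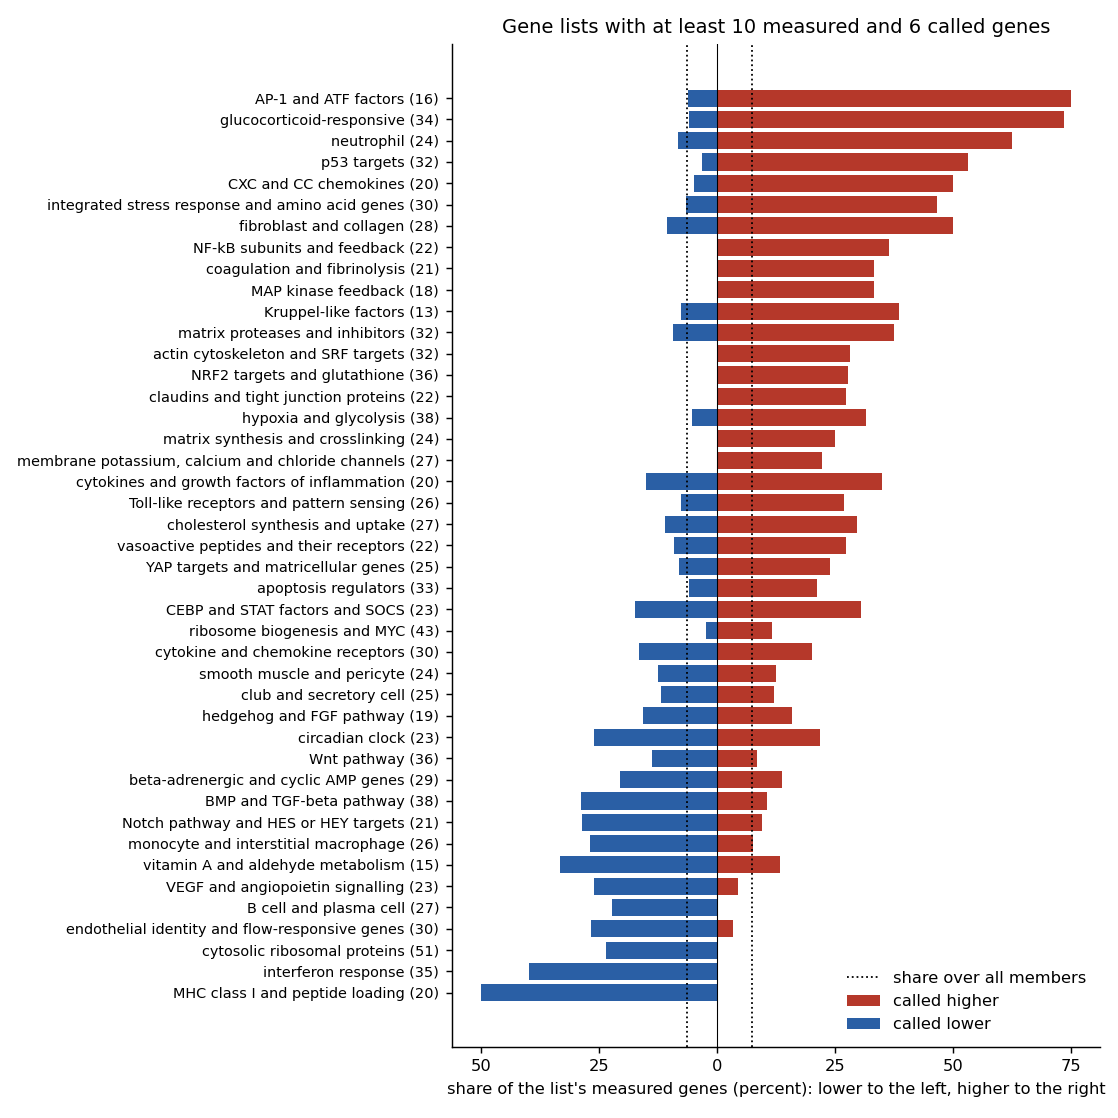
Percent of measured genes called higher (red, right) and lower (blue, left) in each list with at least 10 measured and 6 called genes, with the number measured in brackets and dotted lines at the shares over all 13344 genes (7.38 and 6.41 percent). AP-1, glucocorticoid-responsive, neutrophil and p53 lists lie furthest to the right, and MHC class I and interferon lists furthest to the left. Lists can share genes, as the glucocorticoid-responsive and p53 lists do.

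Several transcription factors of endothelium fell, while Erg and Fli1 were not called. Of 30 genes 8 were lower and 1 higher. Klf2, which laminar blood flow induces, fell from 236 to 44.2 CPM, at a log2 change of -2.42 in the authors' deposited table (adjusted p = 1.39e-27, edgeR). The SOXF factors followed, Sox18 from 139 to 29.6 CPM, Sox7 from 139 to 60.6 CPM and Sox17 from 62.6 to 40.7 CPM. Gja5 (connexin 40), a gap junction protein of arterial endothelium, fell from 136 to 39 CPM, and Tmem100 from 544 to 212 CPM. Of genes found across endothelium, Clec14a fell from 725 to 380 CPM and Egfl7 from 355 to 201 CPM, while Cdh5 (1035 and 1209 CPM) and Pecam1 (830 and 842 CPM) and the nitric oxide synthase Nos3 (17.9 and 18 CPM) were not called. Klf2 stood at 59.7 CPM in KO_VILIlow and 79 CPM in KO_VILIhigh against 198 CPM in KO_noVILI, and Sox18 at 39.4 CPM in KO_VILIlow and 35.8 CPM in KO_VILIhigh against 217 CPM.

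Notch signalling, by which endothelial cells choose between tip and stalk fates, had 6 lower and 2 higher genes of 21. The endothelial ligand Dll4 fell from 160 to 65.5 CPM and Jag1 from 78.3 to 48.7 CPM. Of the HES and HEY family genes, Hey1 fell from 112 to 41.2 CPM and the rare transcript Hes2 from 3.66 to 0.569 CPM. Heyl of the same family rose from 35.6 to 66.3 CPM and Hes1 was not called at 79 and 67.9 CPM. The feedback inhibitor Nrarp fell from 78.2 to 24.3 CPM. The receptors Notch1 (296 and 283 CPM) and Notch4 (196 and 224 CPM) were not called and Notch2 rose from 204 to 287 CPM. Dll4 had a log2 change of -1.29 in the authors' deposited table (adjusted p = 3.1e-14, edgeR).

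Genes of the BMP and TGF-beta pathway showed 11 falls and 4 rises among 38 measured. The direct BMP targets Id1 (81.9 to 41.9 CPM) and Id3 (140 to 72.4 CPM) fell, as did the inhibitory SMADs Smad6 (225 to 119 CPM) and Smad7 (131 to 85.9 CPM). Upstream, the ligand Bmp4 fell from 102 to 56.9 CPM and the endothelial receptor Acvrl1 (ALK1) from 864 to 598 CPM. Bmp2 and Smad1 rose, from 5.54 to 10.9 CPM and from 40.2 to 66.5 CPM, and Bmpr2 was not called at 349 and 341 CPM. VEGF and angiopoietin genes were lower in 6 of 23 cases and higher in 1, Angptl4, which rose from 18.5 to 57.1 CPM. The VEGF receptor Kdr fell from 640 to 432 CPM, the apelin receptor Aplnr from 173 to 64.6 CPM and Esm1, a product of tip cells, from 69.6 to 21.7 CPM. Vegfa (1090 and 950 CPM) was not called.

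Regulators of vessel tone and of clotting moved as well. Endothelin-1 (Edn1), a vasoconstrictor, fell from 59.1 to 16.8 CPM, at a log2 change of -1.82 in the authors' deposited table (adjusted p = 2.73e-14, edgeR). The vasodilator adrenomedullin (Adm) rose from 3.09 to 16.7 CPM, while its receptor Calcrl fell from 1307 to 732 CPM and the partner of that receptor Ramp3 rose from 3.79 to 9.21 CPM. Angiotensinogen (Agt) rose from 1.05 to 6 CPM and the inducible kinin receptor Bdkrb1 from 3.04 to 11.8 CPM. Of 21 genes of coagulation and fibrinolysis 7 were higher and none lower. Tissue factor (F3), which starts clotting, rose from 58.9 to 360 CPM, at a log2 change of 2.61 in the authors' deposited table (adjusted p = 3.09e-67, edgeR). Tissue plasminogen activator (Plat) rose from 38.5 to 65.2 CPM and the urokinase receptor Plaur from 46.4 to 96.6 CPM. The anticoagulant receptor Thbd stood at 1088 and 931 CPM and was not called.

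The prostaglandin synthase Ptgs2 (COX-2) rose from 32.7 to 313 CPM, at a log2 change of 3.26 in the authors' deposited table (adjusted p = 2.1e-77, edgeR). Its constitutive relative Ptgs1 was not called at 77.1 and 94.8 CPM. Of the receptors for its products, Ptger2 for prostaglandin E2 fell from 9.91 to 4.27 CPM and Ptgir for prostacyclin from 10.3 to 4.75 CPM, while Ptgfr for prostaglandin F2-alpha rose from 18.4 to 29.8 CPM. Of the adrenergic receptors, Adrb3 fell from 14.6 to 1.97 CPM and Adrb1 from 75.5 to 32.3 CPM. Adrb3 had the largest fall of all genes with at least 0.5 CPM in both groups, at a log2 change of -2.89 in the authors' deposited table (adjusted p = 5.53e-17, edgeR). Genes of fat, where Adrb3 is best known, were called in 3 of 18 cases, 1 higher and 2 lower. Adrb3 itself is among the lower ones, and Adipoq was not called at 6.67 and 6.18 CPM. The adenosine receptor Adora2b rose from 11.9 to 30.8 CPM.

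The fibroblast transcription factors Tcf21 and Meox2 fell as several structural matrix genes rose. Tcf21, which marks lipofibroblasts, went from 146 to 32.9 CPM and the homeobox gene Meox2 from 26.4 to 4.17 CPM. The authors' deposited table gives log2 changes of -2.16 for Tcf21 (adjusted p = 1.43e-25, edgeR) and -2.66 for Meox2 (adjusted p = 5.3e-22). In the fibroblast and collagen list 14 of 28 genes were higher and 3 lower. Elastin (Eln) rose from 63.6 to 145 CPM, Col3a1 from 239 to 438 CPM and Col1a1 from 143 to 225 CPM. The fibroblast gene Pdgfra stood at 393 and 406 CPM and was not called. Basement membrane collagens Col4a1 (545 to 1141 CPM) and Col4a2 (555 to 1013 CPM), which share a promoter region, rose side by side with their neighbours Irs2 and Rab20 on chromosome 8.

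Some enzymes that build and cut the matrix rose by more than any fibrillar collagen. Lysyl oxidase (Lox), which crosslinks collagen and elastin, rose from 41.1 to 259 CPM, at a log2 change of 2.66 in the authors' deposited table (adjusted p = 2e-66, edgeR). The hyaluronan synthase Has1 rose from 3.28 to 35.8 CPM. Among matrix proteases and inhibitors 12 of 32 were higher and 3 lower. Adamts15 rose from 38.2 to 124 CPM, Adamts1 from 246 to 527 CPM and Adamts4 from 0.732 to 4.28 CPM. Their relatives Adamts5 and Adamts10 went the other way, from 29.5 to 16.7 CPM and from 166 to 119 CPM. The inhibitor Timp3 rose from 2010 to 2999 CPM. Syn3, within which Timp3 lies, rose from 1065 to 1550 CPM, and reads of these overlapping genes may not have been told apart, since the counting is not stated. Mmp11 fell from 46.8 to 23.1 CPM. The matricellular genes Thbs1 (266 to 1910 CPM) and Ctgf (301 to 961 CPM) rose, whereas the stretch-related gene Ankrd1 (43.1 and 48.6 CPM) was not called. Of 32 genes of the actin and tubulin cytoskeleton 9 rose and none fell, among them the serum response factor Srf (95.9 to 179 CPM) and gamma actin (Actg1, 65 to 116 CPM). Of 14 mechanosensitive channels 1 rose and 0 fell. Piezo2 rose from 84.5 to 120 CPM, and Piezo1 was not called at 210 and 227 CPM.

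Several genes of retinoid signals fell, and those of other developmental signals went both ways. The retinoic acid receptors Rarg (117 to 40.6 CPM) and Rarb (24.4 to 10.7 CPM) fell, and so did Lrat, which stores vitamin A as esters, from 154 to 65.5 CPM. Of 15 genes of vitamin A metabolism 5 were lower and 2 higher, the latter including the dehydrogenase Dhrs9 (1.45 to 7.09 CPM). The neighbouring HOX genes Hoxa3, Hoxa4 and Hoxa5 on chromosome 6 were lower. Of 19 genes of the hedgehog and FGF pathways 3 rose and 3 fell. Ptch1, the hedgehog receptor and target, fell from 170 to 78.8 CPM and the FGF receptor Fgfr4 from 66.2 to 35.9 CPM, while the FGF carrier Fgfbp1 rose from 25.8 to 58.9 CPM and the ligand Fgf2 from 2.46 to 5.92 CPM. Of 36 genes of the Wnt pathway 3 rose and 5 fell. The Wnt receptor Fzd7 fell from 97.9 to 47.1 CPM, while the receptor Fzd5 rose from 57 to 90.5 CPM and the inhibitor Nkd1 from 159 to 299 CPM. Gli1 (12.3 and 7.69 CPM) and Axin2 (37.8 and 35.1 CPM), which report hedgehog and Wnt signalling, were not called.

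Some junction genes and keratins of epithelium rose. Of 22 claudins and tight junction proteins 6 were higher and none lower, among them Cldn7 (41.4 to 69.2 CPM), Cldn23 (6.35 to 19.4 CPM) and Cldn3 (138 to 195 CPM) besides Cldn4. Cldn18 (1148 and 1031 CPM), the main claudin of alveolar epithelium, and occludin (Ocln, 81.9 and 92.1 CPM) were not called. The keratins Krt8 (86.6 to 292 CPM) and Krt18 (124 to 361 CPM), which pair in simple epithelia, rose with the linker protein Eppk1 (45.7 to 271 CPM). Krt8 had a log2 change of 1.76 in the authors' deposited table (adjusted p = 1.24e-35, edgeR). Stratifin (Sfn, 14-3-3 sigma), an epithelial adaptor protein, rose from 2.48 to 43.5 CPM. Mesothelial cells share these keratins. Of 10 mesothelial genes 4 rose and none fell, the 3 keratins Krt8, Krt18 and Krt19 and the uroplakin Upk1b (11.7 to 23.8 CPM), while Msln (59.8 and 52.6 CPM) and Wt1 (5.34 and 4.92 CPM) were not called. The part of mesothelial cells in the keratin rise was not tested.

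Markers of alveolar cells were called about as often as genes in general. Of 21 type 1 cell genes 3 were called: Pdpn rose from 107 to 167 CPM, Gprc5a from 588 to 876 CPM and Rtkn2 fell from 367 to 184 CPM, while Ager stood at 1763 and 1575 CPM. Of 20 type 2 genes 2 rose and 1 fell. The surfactant protein gene Sftpd rose from 597 to 825 CPM and the chemokine gene Cxcl15 (listed as Il8) from 844 to 1117 CPM, while the lineage factor Nkx2-1 fell from 244 to 174 CPM. Of the regulators of ciliated cells 3 fell, while Rfx2 and Rfx3 were not called. Foxj1, the master factor of motile cilia, went from 87 to 27.1 CPM, the multiciliation gene Gmnc from 4.13 to 0.647 CPM and Myb, which acts before Foxj1, from 31.4 to 11.1 CPM. All 29 ciliated cell genes had a log2 change below 0, 5 of them called, and the list's median was -0.34. The dynein gene Dnah5 (74.9 and 62.8 CPM) was not called. For fluid transport, the kinase Sgk1, which raises sodium channel activity, rose from 137 to 387 CPM and the sodium pump subunit Atp1b1 from 405 to 697 CPM, while the channel subunit Scnn1a stood at 715 and 720 CPM.

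Glucocorticoid-responsive genes counted 25 rises and 2 falls among 34 measured, with a median log2 change of 1.05. Pdk4, which turns fuel use from glucose to fat, rose from 15.5 to 92 CPM, Klf9 from 180 to 356 CPM and Zbtb16 from 155 to 356 CPM. The receptor itself, Nr3c1, fell from 346 to 233 CPM. Dusp1 and Per2 of the same list were not called, at log2 changes of 0.24 and 0.22, and Fkbp5 was not found in the data. The part of glucocorticoids in these rises was not tested. Clock genes split, with 5 higher and 6 lower of 23. Per1, which glucocorticoids also induce, rose from 228 to 399 CPM, and the repressor Nfil3 from 4.46 to 44.6 CPM. The output factors Dbp (226 to 71.3 CPM), Tef (757 to 508 CPM) and Hlf (98.9 to 57.3 CPM), which compete with Nfil3 for the same sites, fell with Nr1d1 (338 to 123 CPM). Arntl (2.52 and 3.9 CPM) and Clock (69.4 and 78.5 CPM) were not called. Dbp stood at 113 CPM in KO_noVILI, and the hour at which lungs were taken is not in the labels.

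Targets of p53 counted 17 rises and 1 fall among 32 measured. The rises Cdkn1a, Gadd45a, Gadd45b, Gadd45g, Sesn1 and Ddit4 are also counted in the glucocorticoid-responsive list, so the 2 counts are not separate. The cyclin-dependent kinase inhibitor Cdkn1a (p21) rose from 27.8 to 165 CPM, at a log2 change of 2.57 in the authors' deposited table (adjusted p = 1.99e-58, edgeR). Plk3 rose from 15.2 to 70.2 CPM, Gadd45g from 12.6 to 65.3 CPM and Gdf15, a stress cytokine that p53 and Atf4 both induce, from 1.16 to 14.8 CPM. Classical targets such as Ccng1 (136 and 115 CPM), Bax (25.1 and 28.5 CPM) and Zmat3 (40.2 and 41.9 CPM) were not called. Among apoptosis regulators the survival gene Bcl2l1 rose from 134 to 343 CPM and the pro-apoptotic gene Pmaip1 from 14 to 39.3 CPM, while Bmf, also pro-apoptotic, fell from 83.2 to 37.3 CPM.

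Antioxidant genes listed as NRF2 targets or with glutathione rose in 10 of 36 cases, and none fell. The part of NRF2 in these rises was not tested. The cystine importer Slc7a11 rose from 5 to 55.7 CPM and is also counted in the integrated stress response list below. Gclc, which begins glutathione synthesis, rose from 58.5 to 226 CPM, and sulfiredoxin (Srxn1), which repairs oxidised peroxiredoxin, from 29.1 to 182 CPM. Srxn1 had a log2 change of 2.64 in the authors' deposited table (adjusted p = 8.96e-48, edgeR). Metallothioneins, which bind zinc and copper, rose: Mt1 from 25.7 to 143 CPM and Mt2 from 9 to 86.4 CPM, the latter at a log2 change of 3.26 in the authors' deposited table (adjusted p = 1.77e-34, edgeR). The 250 bases before the start of these genes in RefSeq's GRCm38.p6 are given because each holds repeated matches of 1 motif. Srxn1, at chr2:152105274-152105523 on the plus strand, holds 2 AP-1 sites (in capitals, here as TGAGTCA, the reverse complement of TGACTCA), letters that also occur within antioxidant response elements. Mt2, at chr8:94172368-94172617 on the plus strand, holds 3 copies of the metal response element TGCACNC or TGCGCNC on either strand (in capitals).
Srxn1: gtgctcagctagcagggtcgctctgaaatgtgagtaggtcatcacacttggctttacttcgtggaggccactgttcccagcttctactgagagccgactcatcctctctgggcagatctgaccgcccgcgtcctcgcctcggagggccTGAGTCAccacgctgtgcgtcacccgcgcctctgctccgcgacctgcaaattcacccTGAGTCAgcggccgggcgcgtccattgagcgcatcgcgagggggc
Mt2: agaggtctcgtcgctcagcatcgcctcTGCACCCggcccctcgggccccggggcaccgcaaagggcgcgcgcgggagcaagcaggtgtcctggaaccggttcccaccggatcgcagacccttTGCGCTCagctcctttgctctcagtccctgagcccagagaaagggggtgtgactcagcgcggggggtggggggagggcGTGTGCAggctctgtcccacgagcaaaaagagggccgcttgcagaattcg
Of all 27025 promoters, 21.3 percent hold at least 1 metal response element and 0.773 percent at least 3, so 1 match alone is common. Of 25 named genes with at least 2 matches of 1 motif, the 6 with the smallest p also include Krt18 and Dusp8, which rose, and Dbp, which fell and likewise holds 3 metal response elements that do not overlap. The other called gene of the list of metallothioneins and zinc transporters was the transporter Slc39a14, which rose from 23.8 to 43.5 CPM.

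Genes of the integrated stress response and of amino acid supply counted 14 rises and 2 falls among 30 measured. Transporters led, Slc7a5 (large neutral amino acids) rising from 18.1 to 88 CPM and Slc7a1 (arginine and lysine) from 35.1 to 98.1 CPM. Atf4, the factor at the centre of this response, rose from 195 to 303 CPM, and Chac1 and Trib3 from 6.26 to 21 CPM and from 6.53 to 17.1 CPM. Ddit3 (CHOP, 21.4 and 20 CPM) and Asns (26.2 and 25.5 CPM), common targets of Atf4, were not called. Genes of the unfolded protein response were called in 2 of 26 cases, the chaperone Hspa5 (449 to 663 CPM) and the degradation component Herpud1 (221 to 327 CPM), both higher, and tRNA synthetases in 1 of 20. Heat shock genes were called higher in 4 of 34 cases, with the small heat shock protein gene Hspb8 rising from 39.3 to 116 CPM, and Hspa1a stood at 24.4 and 23.9 CPM.

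Several genes of sugar and sterol metabolism rose. The hexokinase Hk2 rose from 22.1 to 99.4 CPM and the glucose transporters Slc2a1 and Slc2a3 from 25 to 52.4 CPM and from 11.8 to 29.1 CPM, while the later glycolytic genes Pkm (299 and 296 CPM) and Ldha (175 and 178 CPM) were not called. Gapdh, an abundant glycolytic gene with many pseudogene copies, is listed at 1.47 and 2.83 CPM, so the values of genes with near-identical copies, ribosomal protein genes among them, are uncertain. Of 38 genes of hypoxia and glycolysis 12 were higher and 2 lower. In cholesterol synthesis and uptake 8 of 27 genes were higher, among them the mevalonate pathway kinase Pmvk (22.1 to 109 CPM). The 3 lower genes were the ubiquitin ligase Mylip, which fell from 65.4 to 43.6 CPM, the oxysterol receptor Nr1h3, from 38.5 to 22.8 CPM and the sterol exporter Abcg1, from 124 to 87.3 CPM. Arginase 2 (Arg2) rose from 4.5 to 22.8 CPM. Dio2, which activates thyroid hormone, rose from 2.49 to 29.5 CPM. Knockout lungs had 1.62 CPM of Dio2 without ventilation and 8.7 and 8.51 CPM with it in the low and high injury groups. Of 27 genes of membrane potassium, calcium and chloride channels 6 rose and none fell, among them Kcne4 from 8.76 to 32.6 CPM and Kcnk1 from 20.6 to 63.9 CPM.

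Cell cycle and respiratory chain genes showed no calls. None of 32 cell cycle genes and none of 43 respiratory chain genes was called in the authors' edgeR test. At an unadjusted p under 0.05, 3 cell cycle genes were higher and 0 lower, and 0 respiratory chain genes were higher and 2 lower. Myc rose from 10 to 41.5 CPM, and of 43 genes of ribosome biogenesis and the MYC network 5 were higher, Myc included, and 1 lower. Cytosolic ribosomal protein genes fell in 12 of 51 cases and rose in none, with a median log2 change of -0.34 and the largest fall at Rps14 (342 to 237 CPM). The nuclear RNA Neat1, which builds paraspeckles, fell from 1971 to 862 CPM, and the thioredoxin inhibitor Txnip from 1206 to 651 CPM.

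Of the 1841 called genes, 1371 are in none of the 75 lists. The fall with the smallest p was that of Lbh, a transcriptional cofactor, from 404 to 99.6 CPM, at a log2 change of -2.02 in the authors' deposited table (adjusted p = 2.88e-41, edgeR). The kinase gene Nuak1 fell from 71.4 to 16.3 CPM and Ppp1r3c, which targets a phosphatase to glycogen, from 20.2 to 4.43 CPM. In ventilated knockout lungs Lbh stood at 75.3 CPM in KO_VILIlow and 107 CPM in KO_VILIhigh against 427 CPM unventilated, and Nuak1 at 13.7 CPM in KO_VILIlow and 17.9 CPM in KO_VILIhigh against 68.8 CPM. The other large falls were from low levels: Slc10a5 (7.49 to 1.36 CPM), Azgp1 (3.56 to 0.748 CPM) and Fn3k (3.48 to 0.75 CPM), which repairs glycated proteins. Arc, an immediate early gene best known from neurons, rose from 1.16 to 12.9 CPM. Glul, the glutamine synthetase, rose from 469 to 946 CPM.

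The genes with the largest changes were, in the median, short and had few exons. In GENCODE models, found for 12966 of the genes (97.2 percent), the 86 genes higher by at least 4-fold had a median of 4.5 exons and a span of 8.68 kb. The 22 genes lower by at least 4-fold had a median of 3.5 exons and 8.62 kb, against 9 exons and 23.4 kb for genes not called. Large folds were called more often at low abundance, with a median of 3.27 log2 CPM for these rises and 4.83 for genes not called, and the part of abundance in these structural differences was not tested. The AU-rich nonamer TTATTTATT, which marks unstable mRNAs when it lies in the 3′ UTR, was found in 124 of 964 higher genes (12.9 percent) and in 63 of 822 lower genes (7.66 percent). It was in 7.49 percent of genes not called and in 17 of the 86 large rises (19.8 percent) and 4 of the 22 large falls (18.2 percent). Median 3′ UTR lengths of higher and lower genes were 1362 and 1378 bases, against 1112 for genes not called. These shares are descriptions without a test, and this motif was chosen after the data had been seen. Its binding protein Zfp36, which speeds the decay of such mRNAs, rose from 164 to 379 CPM.

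**Figure D5:**
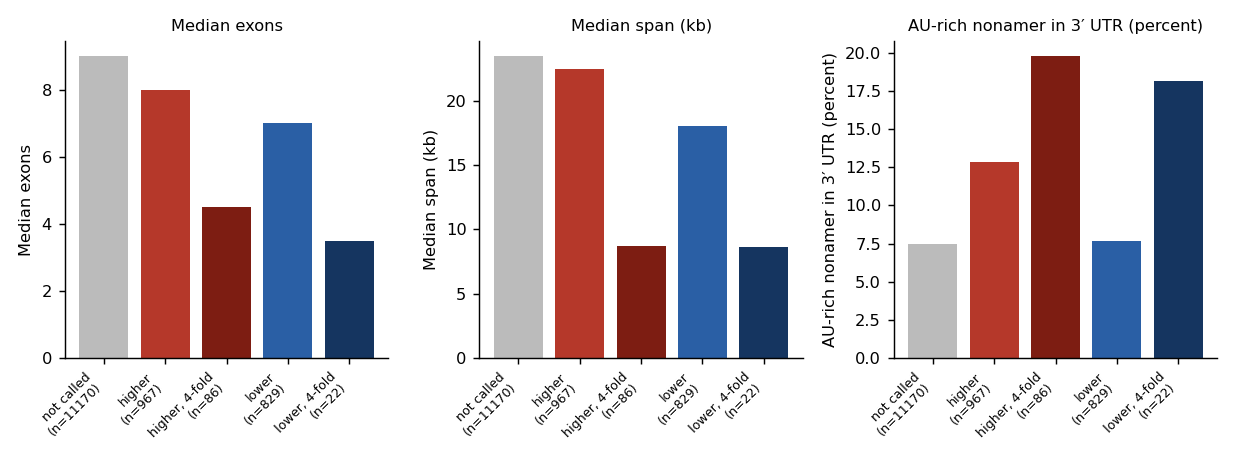
Median number of exons (left), median gene span in kb (middle) and percent of genes with the AU-rich nonamer in the 3′ UTR (right), for genes not called, called higher, higher by at least 4-fold, called lower and lower by at least 4-fold (number of genes in brackets). Both sets of large changes have the fewest exons and shortest spans, and the nonamer is more frequent among higher genes (12.9 percent) than among lower genes (7.66 percent), but is also in 18.2 percent of the large falls.

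Called genes lay on every autosome. Between 11.1 percent of genes on chromosome 17 and 18.3 percent on chromosome 16 were called. There were 25 runs of at least 3 neighbouring genes called in the same direction, 14 higher and 11 lower. The longest held 5 genes each: the Gbp genes on chromosome 3 and 5 protease inhibitor genes on chromosome 12, Serpina3f, Serpina3g, Serpina3h, Serpina3m and Serpina3n, which were higher by 0.91 to 1.87 on the log2 scale. Serpina3 genes are near copies, so reads may have been shared among them. Ccl2, Ccl7 and Ccl11 on chromosome 11 and Cxcl15, Cxcl1 and Cxcl2 on chromosome 5 were further runs of related genes.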

How the data were processed

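The authors sequenced RNA of whole lungs (TRIzol extraction, TruSeq libraries, per the labels' protocols). Per the submitters' processing notes, the authors used Bowtie 1.1.2, the mouse build mm9, R 3.0.1 and edgeR, whose version is not given in the sources used here. The deposited data are 4 tables of comparisons over 21590 genes, each with a log2 fold change, a mean abundance and a p-value with its FDR per gene. The headers do not name the abundance unit. The deposited abundance was read as the log2 of the mean CPM of both groups, since its linear values sum to 1.0044e+06. How reads were counted, the filters and the depth are not given in the sources used here.

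The level of each group was rebuilt from fold change and mean CPM. The ventilated knockout tables were read as comparisons with WT_VILI and not with WT_noVILI, although the labels list every table under WT_noVILI. With the median offset removed, their rebuilt reference lay a median 0.0618 and 0.0453 log2 from WT_VILI, against 0.23 and 0.227 log2 from WT_noVILI. These matches were looser than that of the KO_noVILI table with WT_noVILI, at a median 0.00736 log2. The same match fixed the sign of the fold changes.

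Genes were matched by Entrez identifier (21534 found in a RefSeq table of GRCm38.p6, used for chromosome and neighbours). Calls use the deposited FDR at 0.05. Group sizes, counts and medians were computed in Python 3.11.15 (pandas 2.3.3, numpy 2.4.6, scipy 1.17.1), and the procedures were tested on simulated data. The difference between the responses of knockout and wild type used standard errors from the deposited p-values and is approximate. The members, the 75 gene lists and the tests were chosen with earlier results of these data known. Genes named are Cldn4, the 12 largest rises and falls with at least 0.5 CPM in both groups, the 10 largest gains and losses in CPM, the 8 smallest p-values each way, up to 5 called genes each way per list, and other members of a list described. Hoxa, Serpina3 and Gbp runs and the neighbours Rab20 and Irs2 were named after their values were seen. Some genes that this rule names are not reported here. Alternatives tried were other thresholds, minimum abundances and adjustments, centring on the median, and keeping sex-linked genes.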

Additional observations from a re-analysis of the deposited data

Results flagged for a closer look

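The response to ventilation differed between genotypes for 155 of 12588 genes when KO_VILIlow against KO_noVILI was set beside WT_VILI against WT_noVILI, and for 206 of 12675 genes with KO_VILIhigh. The difference itself was tested, approximately, with standard errors taken from the p-values in the authors' deposited table and Benjamini-Hochberg adjustment. The wild type groups differed in sex-linked transcripts, and sex-linked levels of the knockout groups are not given here. In these differences, any effect of sex therefore cannot be told apart from that of genotype, and neither can any difference in strain alleles. Of the 371 called genes named by rank, 18 passed with KO_VILIlow, 13 of which also passed with KO_VILIhigh. The response in the knockout was more positive for 14 of the 18 and more negative for 4. Cldn4 is left out because it is deleted there. The differences, in log2 and knockout minus wild type, were 1.97 for the cytokine gene Lif, 1.31 for its feedback inhibitor Socs3, 1.70 for Fosb, 1.19 for Zfp36, 1.84 for Cyr61 and 1.76 for Mt2. They were 1.88 for the channel subunit gene Kcne4, 1.79 for the kinin receptor gene Bdkrb1, 1.68 for Esm1, 1.30 for the complement gene C4b, 1.07 for Chi3l3 and 1.18 for Lypd2. The smooth muscle genes Cnn1 and Myh11 differed by 1.58 and 1.01. Negative differences were found for Lrat (-1.33), Il2rb (-1.41), Col3a1 (-0.97) and the stretch channel gene Piezo2 (-0.91). With KO_VILIhigh the differences of Il2rb (-0.57, adjusted p = 0.756), Col3a1 (-0.78, 0.114), Piezo2 (-0.91, 0.109), Myh11 (0.81, 0.181) and Chi3l3 (0.98, 0.0564) did not pass. Other members of the lists described above were not counted for the 18. Among them, Fos (2.25) and Ankrd1 (2.02), not called in wild type, also passed with KO_VILIlow. Markers of other tissues moved with these differences. Of 26 cardiac muscle genes 23 had a more positive response in the knockout with KO_VILIlow and 12 with KO_VILIhigh, among them Mybpc3, which differed by 3.45 with KO_VILIlow, and none was more negative. The summed level of that list was 1249 CPM in WT_noVILI and 863.3 CPM in WT_VILI, while in knockout lungs it was 554.1 CPM unventilated and, after ventilation, 1941 CPM with low and 1359 CPM with high injury. Of 18 fat genes 7 and 6 had a more positive response and none a more negative one, Fabp4 differing by 2.19 with KO_VILIlow. The part of other tissues in the listed differences was not tested.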

How the results depend on the processing

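Under an adjusted p of 0.01 the count of lower genes dropped to 514 (from 856), and the count of higher genes to 674. Bonferroni adjustment over the listed genes left 331 higher and 182 lower genes, and requiring at least 2-fold left 369 and 232. Centring on the median of the genes gave 1062 higher and 770 lower. Other thresholds, minimum abundances and treatments of sex-linked or unplaced genes moved neither count by more than 1.5 times, and no count or named gene changed direction. Of the 371 called genes named by rank, 201 passed Bonferroni adjustment and 366 remained called after centring. The exceptions to centring were Jup, Oaz2, Adamts10, Ccdc39 and Tnfrsf13c. Of 150 counts by list and direction, 40 moved by over 1.5 times at 0.01, 11 at a minimum of 3 log2 CPM, 2 at a minimum of 0 and 1 after centring. The planned shares of promoter motifs and base composition were not run, because 78.7 percent of the genes had a promoter, under the 80 percent needed. No replicate could be left out, and depth cannot be weighed. No paired analysis was possible because the tables hold no values per library.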
